A study of Rattus norvegicus with 21 samples.

Results

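The genes described here copy DNA and prepare the cell for S phase, the stretch of the cell cycle in which the genome is duplicated. A list of 41 such genes was taken, and each was matched to the array probe sets annotated with its symbol and no other. For 37 of the 41 genes such a probe set was found, among 14218 genes measured in all, and each gene was read from the brightest of its probe sets on average. Rrm2, Gins2, Cdc7 and Cdc6 have no probe set of their own here and are not described.

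The values come from the left liver lobe of male Harlan Sprague Dawley rats that were dosed by oral gavage with 2-ethylhexyl diphenyl phosphate (EHDP, also spelled EDHP), an organophosphate that serves as flame retardant and plasticiser. The vehicle was corn oil, which every group received. Dosing ran over 4 days, with 4 doses, and the liver was taken on day 5. The vehicle group has 6 arrays, and doses of 61.2, 122.5, 244.6, 489.2 and 978.5 mg/kg have 3 each, with 1 rat behind an array. The labels give no age. The treatment protocol speaks of a vehicle group smaller by 1 rat than the 6 arrays labelled with dose 0, and all 6 were used.

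Before S phase, the origin recognition complex, Cdc6 and Cdt1 load the MCM helicase onto DNA, and Cdc45 and the GINS complex then switch the helicase on. Primase and polymerase alpha start each strand, polymerases delta and epsilon extend it on the sliding clamp that replication factor C loads, and ligase joins the lagging strand. Many of these genes are switched on by E2F transcription factors late in G1. Hepatocytes of an adult liver are mostly quiescent, and the set is best known in this organ from regeneration and from the short growth response to some liver-enlarging chemicals.

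The tissue label was checked first. The 9 hepatocyte markers measured had mean levels between 14.33 and 14.44 on the log2 scale in every array, and albumin (Alb) stood at 15.34 in the vehicle mean. Array medians ran from 6.87 to 6.93, and each array correlated on average at 0.987 to 0.994 with the others. Values are log2 expression and differences are log2 differences with their standard error (SE). A gene is said to have risen or fallen where its limma p, adjusted by the Benjamini-Hochberg method over all 14218 genes, was under 0.05. All comparisons come from 1 fit of the 21 arrays, with 3 arrays against 6 for a dose against vehicle. The arrays give no detection call, so how far a low value such as that of Orc1, near 3.1 in the vehicle, stands above background is unknown. Levels of different genes are not compared, because each probe set binds with its own strength.

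Replication genes rose at 244.6 mg/kg, the middle of the 5 doses, and their median difference from vehicle was -0.02 at 489.2 mg/kg. In limma 18 of the 37 genes rose and 0 fell at 244.6 mg/kg, which is 48.6% of them against 2.52% of all genes called higher and 0.429% called lower. Mcm6 rose most, 3.21-fold. None passed in either direction at 489.2 mg/kg, where 1.51% of all genes were called higher and 1.39% lower. At an unadjusted p under 0.05 limma gave 1 gene there as higher and 3 as lower, against 7.37% and 7.11% of all genes. At 978.5 mg/kg 5 rose and 0 fell, or 13.5% against a background of 6.18% called higher and 4.07% lower. At 61.2 and 122.5 mg/kg 0 passed, with 0.0141% and 0.113% of all genes called higher and 0% lower. In bulk liver RNA, more cells in S phase and more RNA per such cell cannot be told apart.

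**Figure D1:**
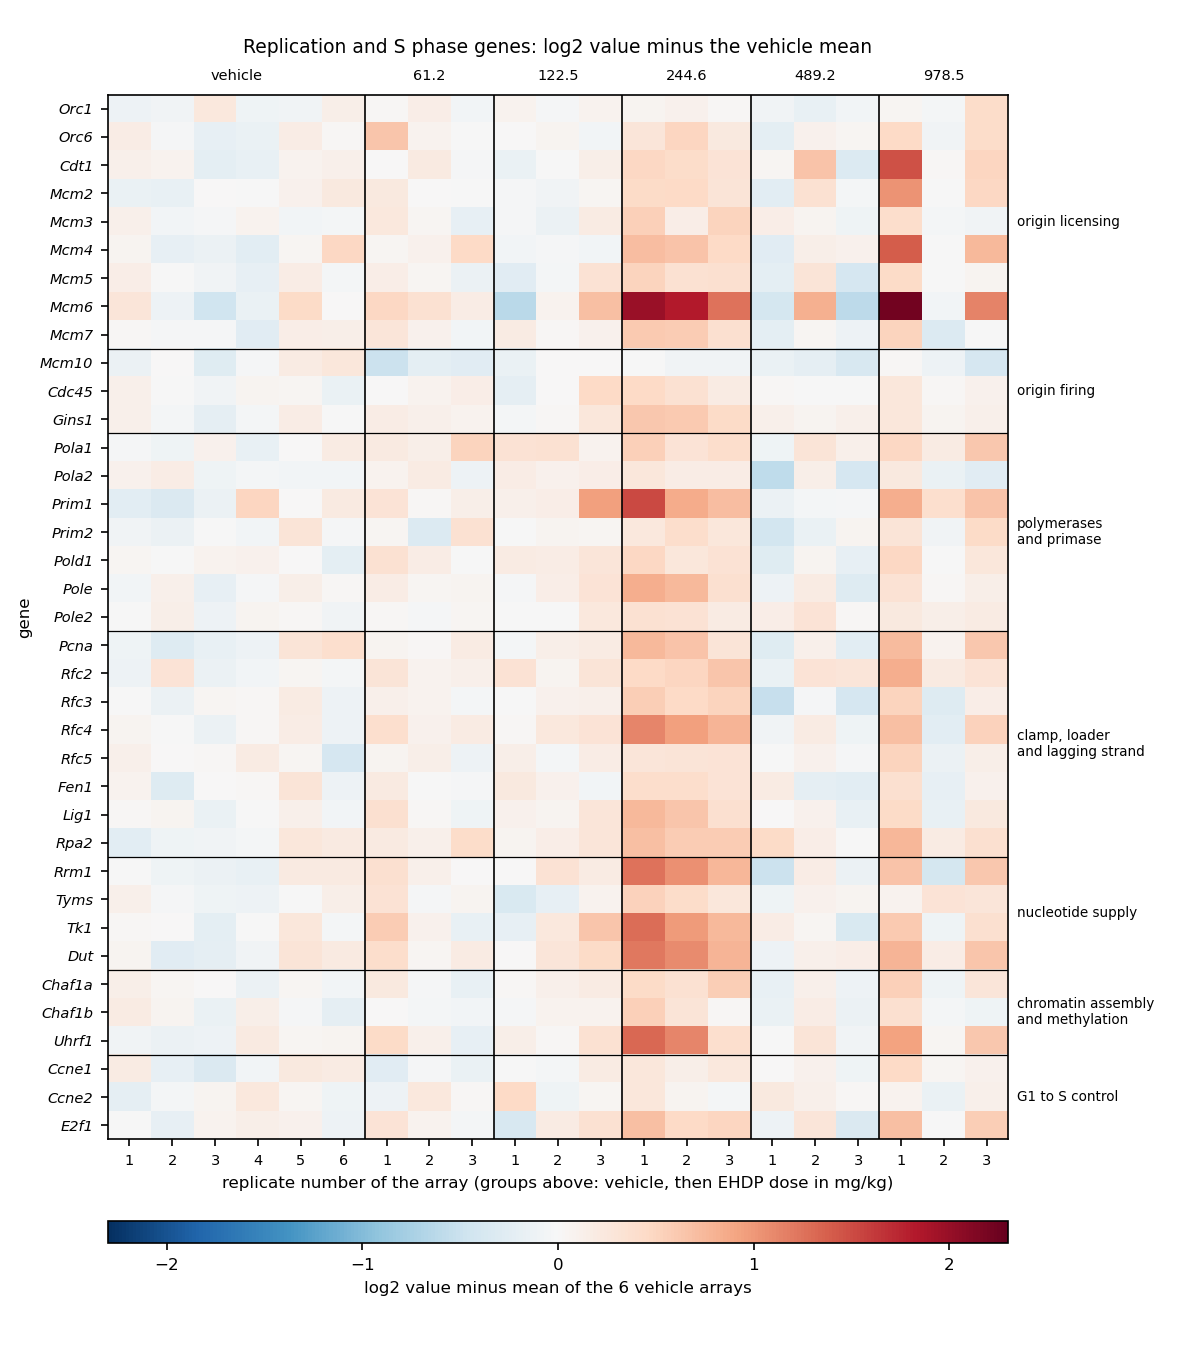
Log2 value of each of the 37 replication and S phase genes (rows, by role) in each of the 21 arrays (columns, by group and replicate number), minus the mean of the 6 vehicle arrays. The 3 arrays at 244.6 mg/kg are raised in most rows, with Mcm6 the strongest, while at 978.5 mg/kg replicates 1 and 3 are raised and replicate 2 lies near the vehicle.

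The shift at 244.6 mg/kg ran through nearly the whole set. Of the 37 differences, 36 lay above 0, with a median of 0.43 and a range from -0.05 for Mcm10 to 1.68 for Mcm6, while the median over all genes was -0.01. In 29 genes all 3 arrays lay above all 6 vehicle arrays, against 5.51% of all genes. The 18 genes that rose did so by 1.22-fold to 3.21-fold, and 5 of them at least 2-fold: Mcm6, Prim1, Rrm1, Tk1 and Dut. The 19 genes that did not pass had differences between -0.05 and 0.61, with a median of 0.34. The count depends on single arrays, since 4 genes passed without replicate 1 of this dose, 9 without replicate 2 and 11 without vehicle replicate 3. For this and later counts with an array left out, the share of all genes called in the same refit is not given. Such counts show only how far the calls depend on single arrays.

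A measure of RNA quality differed between some of the groups. The difference between the 3' and 5' control probe sets of Gapdh, which grows as RNA breaks down, ran from 1.05 to 2.06 in the vehicle, from 0.88 to 1.02 at 244.6 mg/kg, from 1.16 to 1.30 at 489.2 mg/kg and from 0.90 to 1.02 at 978.5 mg/kg. At 61.2 mg/kg the difference ran from 1.05 to 1.48 and at 122.5 mg/kg from 0.85 to 1.29. With this difference as a covariate, added after it was seen, 6 genes passed at 244.6 mg/kg, namely Gins1, Pole, Rfc4, Rrm1, Tk1 and Dut, and the median difference of the 37 was 0.48. With the same covariate 3 passed at 978.5 mg/kg, with a median of 0.28. The 3' to 5' difference of actin, not used as a covariate, ran from 2.17 to 2.73 in the vehicle. It ran from 2.11 to 2.43 at 244.6 mg/kg, from 2.21 to 2.55 at 489.2 mg/kg and from 2.05 to 2.19 at 978.5 mg/kg.

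The promoters of the genes that rose are shown here because many of them hold the word that E2F factors bind. RefSeq promoters of the rat assembly GRCr8, from 250 bases before to 50 after the transcription start, were found for 33 of the 37 genes. The words TTTCCCGC, TTTCGCGC, TTTGCCGC and TTTGGCGC were searched on both strands. The stretches below are from the 6 risen genes whose words all lie before the start site, printed in the direction of the gene with the E2F words in capitals.
Mcm6 (minus strand, chr13:42404455-42404516): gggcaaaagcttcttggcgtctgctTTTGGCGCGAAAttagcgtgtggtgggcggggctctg
Mcm7 (minus strand, chr12:22163198-22163428): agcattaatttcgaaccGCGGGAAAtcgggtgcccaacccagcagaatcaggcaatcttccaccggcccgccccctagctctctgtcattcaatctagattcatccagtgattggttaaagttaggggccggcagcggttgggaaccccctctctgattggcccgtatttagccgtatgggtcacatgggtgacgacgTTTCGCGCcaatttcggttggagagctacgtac
Gins1 (plus strand, chr3:160184870-160184919): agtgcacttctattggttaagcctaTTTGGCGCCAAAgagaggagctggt
Pola1 (minus strand, chrX:62342495-62342552): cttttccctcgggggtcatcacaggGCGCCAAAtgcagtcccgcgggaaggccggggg
Tyms (minus strand, chr9:120776088-120776145): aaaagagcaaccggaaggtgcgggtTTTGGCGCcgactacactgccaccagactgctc
Uhrf1 (plus strand, chr9:1222968-1223119): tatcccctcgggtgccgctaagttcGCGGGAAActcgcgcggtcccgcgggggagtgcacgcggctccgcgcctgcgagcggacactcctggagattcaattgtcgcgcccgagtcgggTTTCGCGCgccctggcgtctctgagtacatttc

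In Mcm6 and Gins1 the capitals hold 2 words that overlap on opposite strands. In the Mcm6 stretch these are TTTGGCGC and, read from the other strand, TTTCGCGC, whereas in Gins1 the same word TTTGGCGC reads both ways. Uhrf1 has 3 promoters in the table, and the stretch is from 1 of them. The Mcm7 stretch shows words near both of its ends.

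A gene was counted if any of its promoters held the word. An E2F word was held by 15 of the 33 replication genes with a promoter, or 45.5%. The share was 3.74% of the 11734 measured genes with a promoter and 2.37% of all 27457 genes in the table. Among the genes that rose at 244.6 mg/kg 11 of 18 held one (61.1%), and among those that did not pass 4 of 15 (26.7%). Those 4 were Cdt1, Mcm2, Mcm3 and Mcm5, all of them licensing genes. The other 5 risen genes with a word, Pole, Pole2, Rfc3, Lig1 and Rpa2, have it at or after the start site. A list of other replication factors had 31 genes measured and a promoter for 26 of them, of which 15 held an E2F word (57.7%). At 244.6 mg/kg 7 of those 31 genes rose (22.6%, against 2.52% of all genes). The shares describe the promoters and carry no test.

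2 further words served as a contrast. CCAAT, bound by NF-Y, was found on either strand in 18 of the 33 replication genes (54.5%), against 38.6% of measured genes. The cell cycle homology region, searched as TTTGAA and TTCGAA and known from promoters that are switched on late in the cell cycle, was found in 6 of 33 (18.2%), against 1759 of the 11734 measured genes. In a list of mitosis genes the shares ran the other way, with an E2F word in 1 of 27 (3.7%), CCAAT in 21 (77.8%) and the late cell cycle word in 19 (70.4%). An E2F word and a CCAAT can share a base, as they do in Mcm7. A word in a window is not a shown binding site, and a window without one says only that these letters are not in it.

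**Figure D2:**
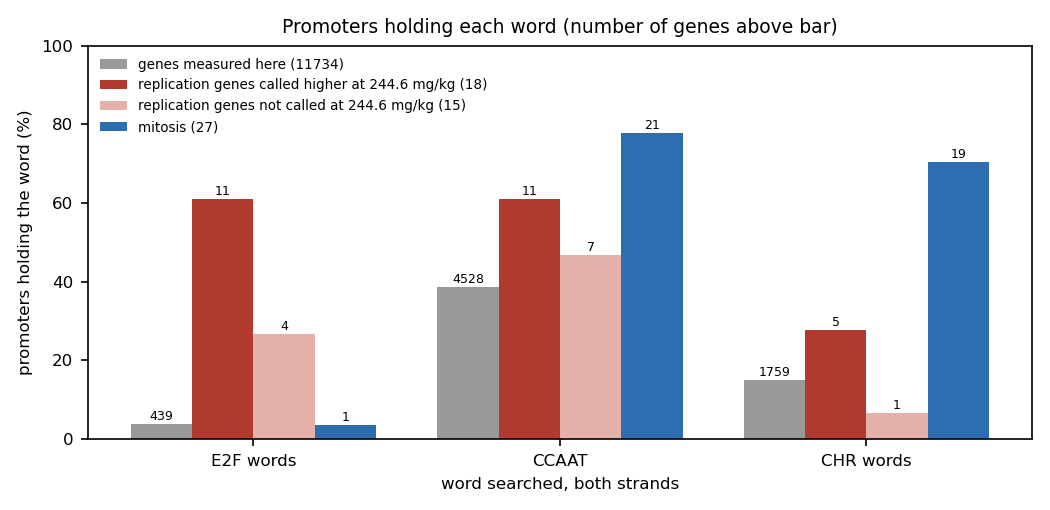
Share of genes (percent) with an E2F word, CCAAT or a late cell cycle word in a promoter, from 250 bases before to 50 after the start. Bars are for measured genes, replication genes that rose at 244.6 mg/kg, those that did not pass, and mitosis genes. The number of genes stands above each bar. E2F words stand at 61.1% in the risen replication genes and at 3.7% in the mitosis genes.

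Origin licensing came first in the pathway, and 2 of its 9 measured genes rose at 244.6 mg/kg, with a median difference of 0.40 and all 9 differences above 0. Mcm6, a subunit of the replicative helicase, ran from 5.66 to 6.54 in the vehicle arrays with a median of 6.06. It read 6.58, 6.46 and 6.29 at 61.2 mg/kg and 5.50, 6.19 and 6.80 at 122.5 mg/kg. At 244.6 mg/kg it read 8.09, 7.94 and 7.35, at 489.2 mg/kg 5.70, 6.94 and 5.52, and at 978.5 mg/kg 8.33, 6.06 and 7.26. All 3 arrays at 244.6 mg/kg lay above all vehicle arrays, whereas at 978.5 mg/kg replicate 2 sat at the vehicle median. The rise at 244.6 mg/kg was 1.68 ± 0.38 (SE, limma adjusted p = 0.015), and the difference at 978.5 mg/kg, 1.10 ± 0.38, did not pass (limma adjusted p = 0.0687). Mcm6 stood 1.74 ± 0.44 lower at 489.2 mg/kg than at 244.6 mg/kg (limma adjusted p = 0.0453).

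Mcm7, another helicase subunit, ran from 8.51 to 8.92 in the vehicle (median 8.78) and read 9.38, 9.36 and 9.13 at 244.6 mg/kg. It rose there by 0.52 ± 0.13 (limma adjusted p = 0.0365), with no overlap with the vehicle. It read 8.56, 8.82 and 8.65 at 489.2 mg/kg, and at 978.5 mg/kg 9.29, 8.46 and 8.77, so that 1 of the 3 highest-dose arrays was above the vehicle arrays and 1 below them. Mcm4, of the same ring, was the reverse case. It ran from 7.31 to 8.03 in the vehicle (median 7.51) and read 8.96, 7.55 and 8.30 at 978.5 mg/kg, where it rose by 0.71 ± 0.21 (limma adjusted p = 0.0336) with replicate 2 inside the vehicle range. The middle dose gave 8.27, 8.22 and 8.01, a difference of 0.61 ± 0.21 that did not pass (limma adjusted p = 0.141), and at 489.2 mg/kg 7.29, 7.69 and 7.65.

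The remaining helicase subunits, Mcm2, Mcm3 and Mcm5, had differences between 0.40 and 0.41 at 244.6 mg/kg. None of the 3 passed, although all their arrays there lay above all vehicle arrays. The same held for Orc6, of the origin recognition complex (0.34 ± 0.14, with 0.09 and 0.11 from its dimmer probe sets), and for the loading factor Cdt1 (0.40 ± 0.22). Orc1, the ATPase of the origin recognition complex, had a difference of 0.07 ± 0.10 (95% interval -0.13 to 0.27). Cdt1 was uneven at the highest dose, with 6.65, 5.21 and 5.68 against 4.96 to 5.31 in the vehicle.

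Of the 3 origin firing genes measured, Gins1 rose at 244.6 mg/kg. Gins1 encodes a subunit of the GINS complex, which joins the helicase when an origin fires. It ran from 5.73 to 6.12 in the vehicle (median 5.91) and read 6.11, 6.05 and 6.02 at 61.2 mg/kg and 5.89, 5.96 and 6.20 at 122.5 mg/kg. At the higher doses it read 6.56, 6.53 and 6.37, then 6.05, 6.004 and 6.04, then 6.19, 5.999 and 6.06. The 3 arrays at 244.6 mg/kg stood apart from all others, and the rise was 0.55 ± 0.08 (limma adjusted p = 0.000801). It was among the calls kept under every alternative setting tried for it. The fall from 244.6 to 489.2 mg/kg was also called, by 0.45 ± 0.10 (limma adjusted p = 0.0143).

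Cdc45, the helicase activator, ran from 7.42 to 7.70 in the vehicle (median 7.60). It read 8.04, 7.93 and 7.75 at 244.6 mg/kg, all above the vehicle, with a difference of 0.34 ± 0.11 that did not pass (limma adjusted p = 0.113). Its 3 dimmer probe sets gave 0.46 ± 0.10, 0.27 ± 0.12 and 0.09 ± 0.10 at that dose. At 489.2 mg/kg it read 7.59, 7.56 and 7.56 and at 978.5 mg/kg 7.83, 7.61 and 7.68. Mcm10, which helps the activated helicase open DNA, was the exception in the whole set. It ran from 6.77 to 7.30 in the vehicle (median 7.03) and read 7.03, 6.97 and 6.97 at 244.6 mg/kg, 6.89, 6.83 and 6.68 at 489.2 mg/kg and 7.06, 6.92 and 6.66 at 978.5 mg/kg. Its difference at 244.6 mg/kg was -0.05 ± 0.11 (95% interval -0.28 to 0.17), and its second probe set gave -0.09.

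Among polymerases and primase 4 of 7 genes rose at 244.6 mg/kg, with a median difference of 0.35. Prim1, the catalytic subunit of primase, ran from 7.14 to 7.95 in the vehicle (median 7.40) and from 7.50 to 8.41 over the 6 arrays of the 2 lowest doses. It read 8.99, 8.32 and 8.18 at 244.6 mg/kg, 7.33, 7.42 and 7.44 at 489.2 mg/kg and 8.30, 7.85 and 8.12 at 978.5 mg/kg. The rise at 244.6 mg/kg was 1.03 ± 0.20 (limma adjusted p = 0.00495), without overlap with the vehicle. The highest dose gave a difference of 0.62 ± 0.20 that lay just outside the threshold (limma adjusted p = 0.0501). The regulatory subunit, Prim2, did not follow closely, with 7.72, 7.88 and 7.75 at 244.6 mg/kg against 7.35 to 7.78 in the vehicle and a difference of 0.30 ± 0.13 (limma adjusted p = 0.314).

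Pole, the catalytic subunit of the leading strand polymerase epsilon, ran from 6.01 to 6.34 in the vehicle (median 6.20). It read 6.37, 6.24 and 6.26 at 61.2 mg/kg, 6.18, 6.35 and 6.51 at 122.5 mg/kg and 7.03, 6.95 and 6.57 at 244.6 mg/kg. At 489.2 mg/kg it read 6.09, 6.39 and 5.89 and at 978.5 mg/kg 6.54, 6.22 and 6.34. The 244.6 mg/kg arrays were above every other array, and the rise was 0.65 ± 0.11 (limma adjusted p = 0.00248). Pole stood 0.73 ± 0.13 below that level at 489.2 mg/kg (limma adjusted p = 0.00818).

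Pole2, the second subunit of polymerase epsilon, showed the smallest rise of the 18. It ran from 5.33 to 5.58 in the vehicle (median 5.46) and read 5.81, 5.77 and 5.64 at 244.6 mg/kg, a rise of 0.29 ± 0.08 (limma adjusted p = 0.0425) whose call was lost in 12 of 16 alternatives. Its arrays at 978.5 mg/kg, 5.68, 5.58 and 5.64, all lay above the vehicle arrays, the only such case among the 37 genes at that dose, against 6.74% of all genes. At 489.2 mg/kg it read 5.60, 5.76 and 5.47.

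Pola1, the catalytic subunit of polymerase alpha, passed at both 244.6 and 978.5 mg/kg. It ran from 5.70 to 6.06 in the vehicle (median 5.86) and read 6.42, 6.18 and 6.27, then 5.76, 6.16 and 5.99, then 6.34, 6.05 and 6.48 at the 3 highest doses in order. The rises were 0.43 ± 0.11 and 0.42 ± 0.11 (limma adjusted p = 0.0439 and 0.0214), both measured against the same vehicle arrays. Of these doses, the arrays at 244.6 mg/kg lay above the vehicle and replicate 2 at 978.5 mg/kg lay inside its range. The call at 244.6 mg/kg was lost in 11 of 16 alternatives. Pold1, of polymerase delta, ran from 6.65 to 6.97 in the vehicle (median 6.90) and read 7.34, 7.13 and 7.21 at 244.6 mg/kg, a difference of 0.35 ± 0.11 that did not pass (limma adjusted p = 0.0816). It read 6.59, 6.94 and 6.70 at 489.2 mg/kg, lower than at 244.6 mg/kg by 0.49 ± 0.12 (limma adjusted p = 0.0446). Pola2, the second subunit of polymerase alpha, had a difference of 0.20 ± 0.12 at 244.6 mg/kg.

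**Figure D3:**
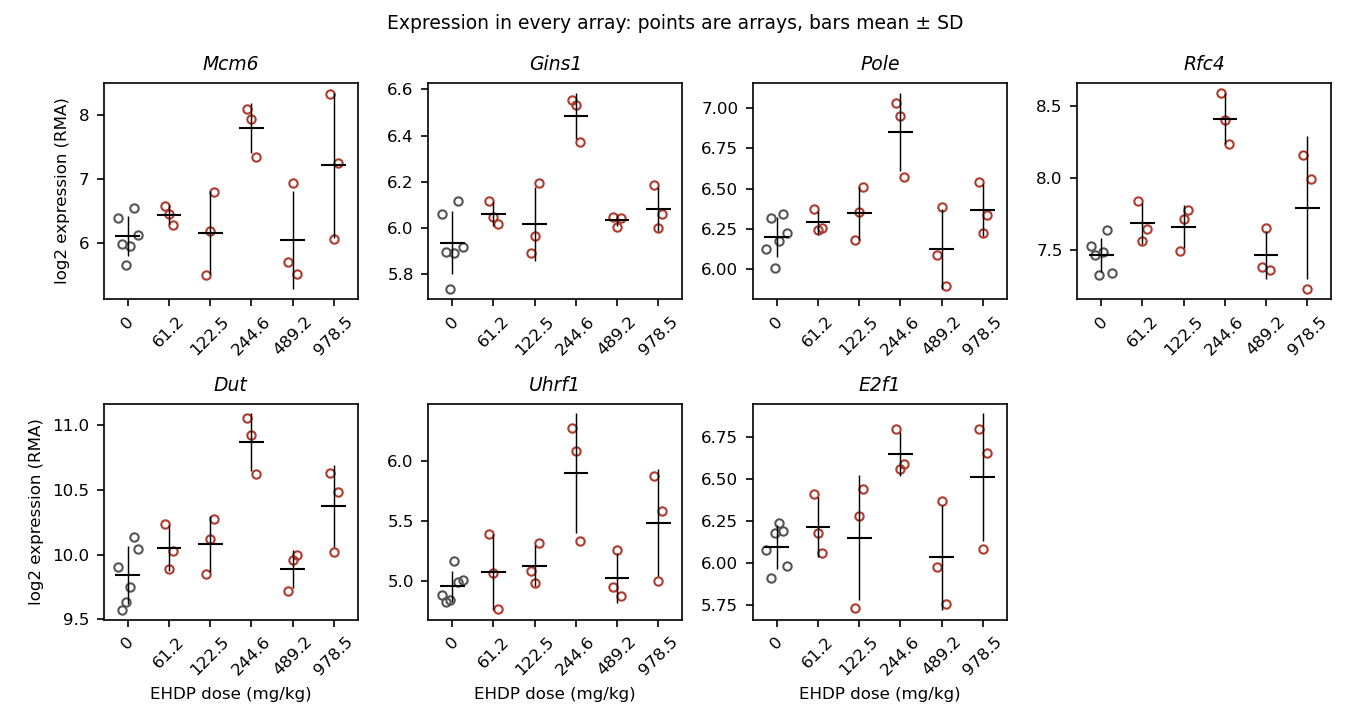
Log2 expression (vertical axis) by EHDP dose in mg/kg (horizontal axis) for Mcm6, Gins1, Pole, Rfc4, Dut, Uhrf1 and E2f1, with 1 point per array and bars for the mean ± SD of 6 vehicle or 3 treated arrays. The arrays at 244.6 mg/kg lie above all vehicle arrays in each panel, and the spread is wide at 978.5 mg/kg in Mcm6, from 6.06 to 8.33.

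The clamp, its loader and the lagging strand enzymes gave 5 rises in 8 genes at 244.6 mg/kg, with a median difference of 0.55. Rfc4, a small subunit of the clamp loader, ran from 7.32 to 7.64 in the vehicle (median 7.47) and from 7.49 to 7.84 over the 6 arrays of the 2 lowest doses. It read 8.59, 8.40 and 8.24 at 244.6 mg/kg, 7.38, 7.65 and 7.36 at 489.2 mg/kg and 8.16, 7.23 and 7.99 at 978.5 mg/kg. The rise at 244.6 mg/kg was 0.95 ± 0.15 (limma adjusted p = 0.00103), and Rfc4 fell back by as much, 0.95 ± 0.17, at 489.2 mg/kg (limma adjusted p = 0.00747). Replicate 2 at 978.5 mg/kg was lower than every vehicle array.

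Rfc2 and Rfc3, further subunits of the loader, rose at 244.6 mg/kg as well. Rfc2 ran from 7.82 to 8.27 in the vehicle (median 7.90) and read 8.42, 8.46 and 8.60 at 244.6 mg/kg, 7.80, 8.28 and 8.24 at 489.2 mg/kg and 8.79, 8.16 and 8.26 at 978.5 mg/kg. Its rises were 0.54 ± 0.13 and, at the highest dose, 0.45 ± 0.13 (limma adjusted p = 0.0277 and 0.0346). Rfc3 ran from 6.75 to 7.07 in the vehicle (median 6.89) and read 7.45, 7.33 and 7.40 at 244.6 mg/kg, a rise of 0.51 ± 0.13 (limma adjusted p = 0.0326). Rfc3 then read 6.34, 6.86 and 6.49 at 489.2 mg/kg, lower than at 244.6 mg/kg by 0.83 ± 0.15 (limma adjusted p = 0.00747) and with 2 of 3 arrays under all vehicle arrays. Its difference from vehicle there, -0.32, did not pass. Rfc5 completed the small subunits with 8.99, 9.01 and 9.03 at 244.6 mg/kg against 8.33 to 8.90 in the vehicle, and its difference of 0.30 ± 0.12 did not pass (limma adjusted p = 0.243).

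Pcna, the sliding clamp, ran from 8.91 to 9.59 in the vehicle (median 9.09). It read 9.95, 9.86 and 9.50 at 244.6 mg/kg, 8.92, 9.31 and 8.96 at 489.2 mg/kg and 9.93, 9.29 and 9.82 at 978.5 mg/kg. The differences of 0.57 ± 0.16 and 0.48 ± 0.16 at 244.6 and 978.5 mg/kg lay just outside the threshold (limma adjusted p = 0.0517 and 0.0546), with overlap at both doses.

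Lig1, the ligase that seals lagging strand fragments, ran from 7.79 to 8.06 in the vehicle (median 7.95) and read 8.67, 8.58 and 8.31 at 244.6 mg/kg, 7.95, 8.04 and 7.76 at 489.2 mg/kg and 8.38, 7.77 and 8.16 at 978.5 mg/kg. The rise was 0.58 ± 0.12 (limma adjusted p = 0.00937), but a dimmer probe set of the gene gave 0.10. Rpa2, of the complex that coats single-stranded DNA, ran from 6.53 to 7.04 in the vehicle (median 6.73) and read 7.48, 7.36 and 7.36 at 244.6 mg/kg, 7.23, 6.93 and 6.77 at 489.2 mg/kg and 7.54, 6.97 and 7.14 at 978.5 mg/kg. It rose at 244.6 mg/kg by 0.62 ± 0.13 and at 978.5 mg/kg by 0.43 ± 0.13 (limma adjusted p = 0.00849 and 0.0345). Fen1, the flap endonuclease of the lagging strand, had a difference of 0.38 ± 0.13 at 244.6 mg/kg that did not pass, with all 3 arrays above the vehicle.

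Nucleotide supply was the group with the highest median at 244.6 mg/kg, 1.01, and all 4 measured genes rose. Dut, the dUTPase that keeps uracil out of DNA, ran from 9.58 to 10.14 in the vehicle (median 9.83) and read 10.24, 9.89 and 10.03 at 61.2 mg/kg and 9.85, 10.12 and 10.28 at 122.5 mg/kg. At 244.6 mg/kg it read 11.06, 10.92 and 10.62, at 489.2 mg/kg 9.72, 9.96 and 9.99, and at 978.5 mg/kg 10.63, 10.02 and 10.48. The rise of 1.02 ± 0.15 at 244.6 mg/kg had the smallest adjusted p of the set (limma adjusted p = 0.000584). Dut rose by 0.54 ± 0.15 at 978.5 mg/kg too (limma adjusted p = 0.0245), and its dimmer probe set gave 0.14 at 244.6 mg/kg.

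Rrm1, the large subunit of ribonucleotide reductase, ran from 7.58 to 7.97 in the vehicle (median 7.70). It read 8.998, 8.80 and 8.51 at 244.6 mg/kg, 7.26, 7.92 and 7.61 at 489.2 mg/kg and 8.41, 7.34 and 8.37 at 978.5 mg/kg, where replicate 2 lay under all vehicle arrays and the others above them. The rise at 244.6 mg/kg was 1.02 ± 0.19 (limma adjusted p = 0.00426), and the fall to 489.2 mg/kg 1.17 ± 0.22 (limma adjusted p = 0.00858). Tk1, the S phase thymidine kinase, ran from 7.93 to 8.41 in the vehicle (median 8.14) and read 9.43, 9.12 and 8.90 at 244.6 mg/kg, 8.32, 8.19 and 7.81 at 489.2 mg/kg and 8.75, 8.06 and 8.52 at 978.5 mg/kg. It rose by 1.0004 ± 0.19 (limma adjusted p = 0.00415), and its other probe sets gave 1.49 and 0.20. Thymidylate synthase, Tyms, ran from 5.52 to 5.78 in the vehicle (median 5.62) and read 6.17, 6.07 and 5.89 at 244.6 mg/kg, a rise of 0.40 ± 0.10 (limma adjusted p = 0.0306). Tyms was the 1 gene in which replicate 2 at 978.5 mg/kg, at 5.95, was higher than replicates 1 and 3, at 5.71 and 5.92.

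Chromatin genes that act at the fork gave 2 rises in 3. Uhrf1, which guides maintenance DNA methylation to new strands, ran from 4.83 to 5.17 in the vehicle (median 4.94) and from 4.77 to 5.39 over the 6 arrays of the 2 lowest doses. It read 6.27, 6.09 and 5.33 at 244.6 mg/kg, 4.95, 5.26 and 4.87 at 489.2 mg/kg and 5.87, 5.00 and 5.58 at 978.5 mg/kg. The rise at 244.6 mg/kg was 0.94 ± 0.19 (limma adjusted p = 0.00717), with replicate 3 far below the other 2 arrays but still above the vehicle. Chaf1a, the large subunit of the histone chaperone CAF-1, ran from 6.36 to 6.63 in the vehicle (median 6.52), read 6.95, 6.85 and 7.07 at 244.6 mg/kg and rose by 0.45 ± 0.11 (limma adjusted p = 0.0312). Its partner Chaf1b read 7.81, 7.56 and 7.30 against 7.06 to 7.45 in the vehicle, and the difference of 0.29 ± 0.12 did not pass (limma adjusted p = 0.254).

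On the probe sets used, none of the 3 genes of G1 to S control passed at any dose in limma, and by unadjusted p under 0.05 E2f1 was higher at 244.6 and 978.5 mg/kg and the cyclins at neither. E2f1, the transcription factor that gives its name to the promoter word, ran from 5.91 to 6.24 in the vehicle (median 6.13). It read 6.80, 6.56 and 6.59 at 244.6 mg/kg, all above the vehicle, then 5.98, 6.37 and 5.76 at 489.2 mg/kg and 6.80, 6.08 and 6.66 at 978.5 mg/kg. The differences of 0.55 ± 0.16 and 0.41 ± 0.16 at 244.6 and 978.5 mg/kg missed the threshold (limma adjusted p = 0.0747 and 0.111). Cyclin E1, Ccne1, which drives entry into S phase with Cdk2, read 7.04, 6.91 and 7.02 at 244.6 mg/kg and overlapped with its vehicle range of 6.44 to 6.99. Its difference was 0.22 ± 0.12 (95% interval -0.03 to 0.47), and that of cyclin E2, Ccne2, was 0.09 ± 0.12 (95% interval -0.16 to 0.34). The probe sets of Ccne2 disagreed, since its dimmer one gave 0.25 ± 0.12 at 244.6 mg/kg and 0.55 ± 0.12 at 978.5 mg/kg, where the one used gave 0.01 ± 0.12.

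**Figure D4:**
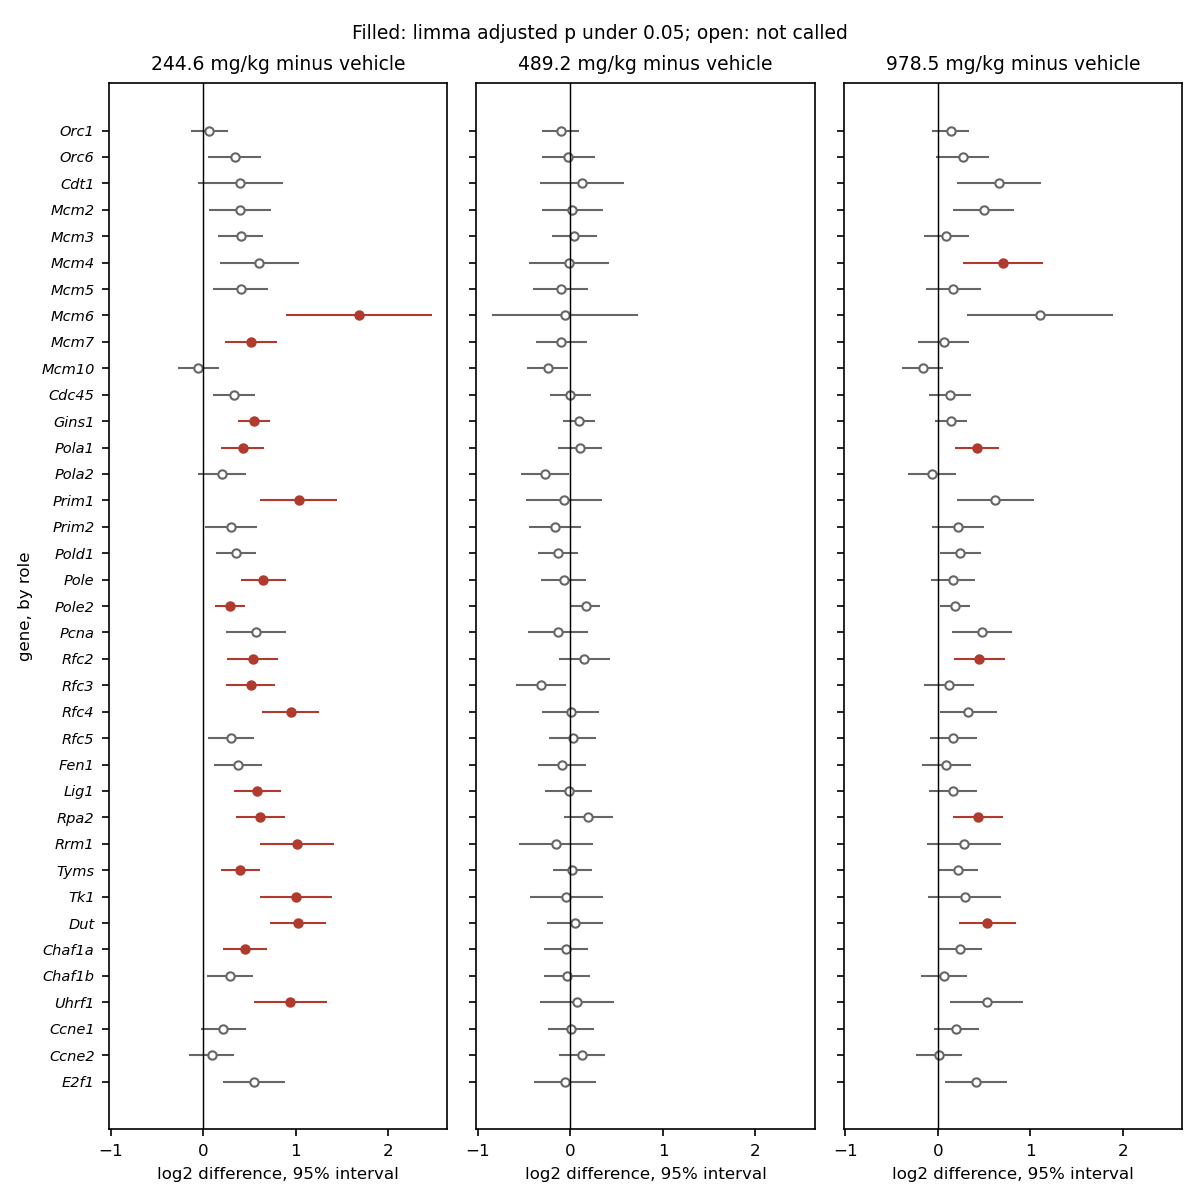
Log2 difference from the vehicle with its 95% interval for each of the 37 genes, in order of role, at 244.6, 489.2 and 978.5 mg/kg. Filled points have a limma adjusted p under 0.05. The 244.6 mg/kg panel holds 18 of them, the 489.2 mg/kg panel 0 and the 978.5 mg/kg panel 5.

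At the 2 lowest doses the differences stayed small. They ran from -0.32 to 0.33 at 61.2 mg/kg (median 0.09) and from -0.15 to 0.40 at 122.5 mg/kg (median 0.09). By unadjusted limma p under 0.05, Pola1 was higher at both doses and Mcm10 lower at 61.2 mg/kg, and these were the only such cases. That rule took 3.12% of all genes as higher and 2.36% as lower at 61.2 mg/kg, and 3.19% as higher at 122.5 mg/kg. A single array stood out at each dose. Replicate 1 at 61.2 mg/kg exceeded all vehicle arrays in 16 of the 37 genes (against 16.6% of all genes) and replicate 3 at 122.5 mg/kg in 18 (against 18.3%). The other 4 arrays did so in 3 to 6 of the 37, and the share of all genes is not given for them.

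The step down between 244.6 and 489.2 mg/kg was tested directly, in a comparison added after the counts against vehicle had been seen. By this test 13 of the 37 genes were lower at 489.2 mg/kg than at 244.6 mg/kg and 0 higher, against 1.5% of all genes called lower and 0.204% higher. Differences had a median of -0.47. In 32 genes all arrays at 489.2 mg/kg lay under all arrays at 244.6 mg/kg, against 9.14% of all genes. The largest step was that of Mcm6. Beside the genes already given, Prim1 was lower by 1.10 ± 0.23, Tk1 by 1.04 ± 0.22, Dut by 0.98 ± 0.17, Uhrf1 by 0.87 ± 0.22, Mcm7 by 0.62 ± 0.15 and Lig1 by 0.60 ± 0.14, with limma adjusted p-values from 0.00736 to 0.0461. The count was 0 without replicate 1 at 244.6 mg/kg, 4 without replicate 2 at 244.6 or replicate 1 at 489.2 mg/kg and 6 without replicate 3 at 489.2 mg/kg, and the median difference stayed between -0.54 and -0.45. This comparison shares its 244.6 mg/kg arrays with the one against vehicle.

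Against the vehicle, differences at 489.2 mg/kg ran from -0.32 for Rfc3 to 0.19 for Rpa2, with a median of -0.02 and 15 of 37 above 0. By unadjusted limma p under 0.05, Pole2 was higher and Rfc3, Mcm10 and Pola2 were lower, against 7.37% and 7.11% of all genes. Without replicate 2 of this dose 1 gene was called, as lower.

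At 978.5 mg/kg the set was split by array rather than shifted as a whole. Of the 37 differences 35 lay above 0, with a median of 0.22 and a range from -0.16 to 1.10, and 17 genes were higher at an unadjusted limma p under 0.05, against 12.4% of all genes. Replicate 1 had the highest value of the 3 arrays in 32 genes and lay above all vehicle arrays in 33. Replicate 2 had the lowest value in 32 genes and lay above all vehicle arrays in 2, and replicate 3 in 22. Of all genes, 21% lay above the vehicle arrays in replicate 1, 15.5% in replicate 2 and 20.8% in replicate 3. The median SD of the 37 genes was 0.30 here and between 0.13 and 0.18 in the other groups, while the median SD of all genes was 0.12 here and between 0.10 and 0.13 elsewhere.

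The 5 genes that rose at 978.5 mg/kg, Mcm4, Pola1, Rfc2, Rpa2 and Dut, each overlapped with the vehicle in replicate 2, and Rfc2 in replicate 3 as well. The count was 0 without replicate 1 or without replicate 3, and 16 without replicate 2, with no share of all genes given for these refits. Without single vehicle arrays it was 3 for replicate 1, 2 or 4, 2 for replicate 3, 6 for replicate 5 and 8 for replicate 6. Against 489.2 mg/kg 0 genes passed (0.106% of all genes called higher and 0% lower), 15 of the 37 were higher at an unadjusted limma p under 0.05 (7.17% of all genes), and 7 passed without replicate 2 at 978.5 mg/kg. Against 244.6 mg/kg, a comparison added after results were seen, 0 genes passed (0.162% of all genes called higher and 0.0774% lower), with a median difference of -0.20 and 10 genes lower at an unadjusted limma p under 0.05 (5.09% of all genes).

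A trend over the 6 groups by dose rank was called for 2 genes, both upward, where 6.06% of all genes were called higher and 5.12% lower. They were Pole2, with 0.05 ± 0.01 per dose step, and Rfc2, with 0.08 ± 0.03 per step (limma adjusted p = 0.0329 and 0.0441). The call of Pole2 and that of Rfc2 were lost without vehicle replicate 1, vehicle replicate 3 or replicate 1 at 978.5 mg/kg, when 0 genes were called. A rise at 244.6 mg/kg with a fall from there to 489.2 mg/kg, both called in 12 genes, is not a trend of this kind.

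**Figure D5:**
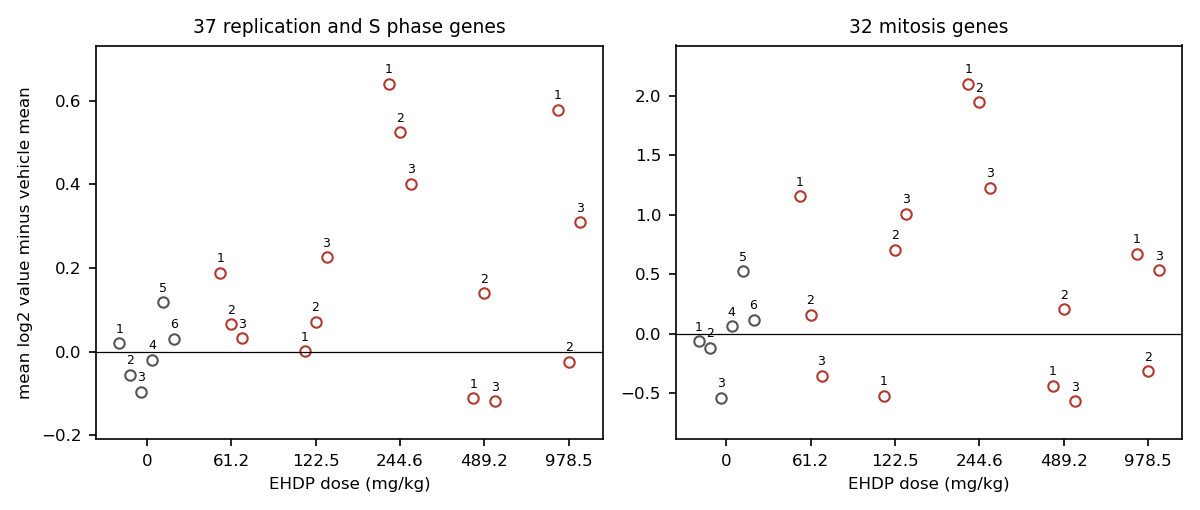
Mean log2 value of 37 replication and S phase genes (left) and of 32 mitosis genes (right) in each array, minus the mean of the 6 vehicle arrays, by EHDP dose in mg/kg, with the replicate number beside each point. The arrays at 244.6 mg/kg reach 0.40 to 0.64 on the left and 1.23 to 2.10 on the right, and those at 978.5 mg/kg spread from -0.02 to 0.58 on the left.

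Averaged over the 37 genes, the vehicle arrays lay between -0.10 and 0.12 of their own mean. Arrays at 244.6 mg/kg lay at 0.64, 0.53 and 0.40, those at 489.2 mg/kg at -0.11, 0.14 and -0.12, and those at 978.5 mg/kg at 0.58, -0.02 and 0.31. Replicate 1 at 61.2 mg/kg (0.19) and replicate 3 at 122.5 mg/kg (0.23) were the only lower-dose arrays above the vehicle range.

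Mitosis genes, which act after replication, were counted beside them as a list of 36 with 32 measured. Of the 32, 29 rose at 244.6 mg/kg (90.6%, against 2.52% of all genes), with a median difference of 1.70. At the other doses 0 passed, and medians were 0.36, 0.42, -0.21 and 0.30 in order of dose. There limma gave 0, 1, 0 and 2 genes as higher at an unadjusted p under 0.05, against 3.12%, 3.19%, 7.37% and 12.4% of all genes. Per array, the mean of the 32 mitosis genes was 2.10, 1.95 and 1.23 at 244.6 mg/kg. The vehicle arrays lay between -0.54 and 0.53. Replicate 1 at 61.2 mg/kg (1.16) and replicates 2 and 3 at 122.5 mg/kg (0.71 and 1.01) lay above them. Of these, replicate 2 at 122.5 mg/kg did not stand out among the replication genes (0.07), while the others did. Replicate 2 at 978.5 mg/kg (-0.31) lay inside the vehicle range of the mitosis genes. Replicates 1 and 3 at 978.5 mg/kg reached 0.68 and 0.54.

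Melk, a mitotic kinase, read 5.97, 5.87 and 5.13 at 244.6 mg/kg against 4.26 to 4.81 in the vehicle, a rise of 1.14 ± 0.17 (limma adjusted p = 0.000788). Mad2l1, of the spindle checkpoint, rose there by 1.06 ± 0.17 (limma adjusted p = 0.00132) and Bub1, another checkpoint gene, by 2.18 ± 0.40 (limma adjusted p = 0.00394). At 978.5 mg/kg the differences of Melk, Mad2l1 and Bub1 were 0.42, 0.38 and 0.81, and none passed. These genes were named for the smallest limma p at 978.5 mg/kg among mitosis genes called equally often, so they do not stand for the list. Set directly against 244.6 mg/kg, 29 mitosis genes were lower at 489.2 mg/kg (90.6%, against 1.5% of all genes). At 978.5 mg/kg 2 were lower (6.2%, against 0.0774%), with a median difference of -1.49 from 244.6 mg/kg. By unadjusted limma p under 0.05, 31 of the 32 were lower there, against 5.09% of all genes.

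The list of 36 other replication factors had 31 measured, of which 7 rose at 244.6 mg/kg and 7 at 978.5 mg/kg, with medians of 0.26 and 0.25. That is 22.6% at each dose, against 2.52% and 6.18% of all genes called higher. At the other doses 0 passed in limma. By unadjusted limma p under 0.05, 1, 3 and 3 were higher there, against 3.12%, 3.19% and 7.37% of all genes. By the same rule 1 was lower at 489.2 mg/kg, against 7.11% of all genes. Gins4, a partner of Gins1, read 7.60, 7.50 and 7.42 at 244.6 mg/kg against 6.78 to 7.19 in the vehicle and rose by 0.53 ± 0.09 (limma adjusted p = 0.00169). It read 7.42, 7.13 and 7.28 at 978.5 mg/kg, where it rose by 0.30 ± 0.09 (limma adjusted p = 0.0356). Timeless, which steadies moving forks, rose by 0.82 ± 0.16 and 0.63 ± 0.16 at these doses (limma adjusted p = 0.00603 and 0.0166). Its arrays at 978.5 mg/kg, 7.04, 6.98 and 6.83, all lay above its vehicle range of 5.83 to 6.66, replicate 2 included.

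Hells, a chromatin remodeller, was called at the highest dose and not at 244.6 mg/kg. It read 8.89, 8.51 and 8.77 at 978.5 mg/kg, all above its vehicle range of 7.67 to 7.95, and rose by 0.93 ± 0.17 (limma adjusted p = 0.00191). At 244.6 and 489.2 mg/kg its differences were 0.39 ± 0.17 and 0.59 ± 0.17 and did not pass (limma adjusted p = 0.307 and 0.0741). Set directly against 244.6 mg/kg, Hells stood 0.53 higher at 978.5 mg/kg, which did not pass (limma adjusted p = 0.333).

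Of 27 other regulators of the step from G1 to S phase 25 were measured, and 3 rose at 244.6 mg/kg (12% against 2.52% of all genes), 1 fell at 489.2 mg/kg (4% against 1.39%), and 1 rose and 2 fell at 978.5 mg/kg (4% against 6.18% and 8% against 4.07%). The shares at 978.5 mg/kg are close to those over all genes. None of the genes of this list that rose at 244.6 mg/kg is among those named below. Cdkn1a, the inhibitor p21 that blocks entry into S phase, ran from 9.56 to 11.06 in the vehicle and read 9.60, 9.60 and 9.07 at 244.6 mg/kg. It read 8.33, 8.42 and 7.95 at 489.2 mg/kg and 8.01, 7.85 and 7.90 at 978.5 mg/kg, under all vehicle arrays. It fell by 1.87 ± 0.24 and 2.18 ± 0.24 there (limma adjusted p = 2e-04 and 9.88e-06), or by 1.13 and 1.35 when its probe sets were averaged. At 244.6 mg/kg, where the replication genes rose, its difference was -0.68 ± 0.24 and did not pass (limma adjusted p = 0.168).

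Cdkn1c, another inhibitor of the same family, read 5.69, 5.86 and 5.94 at 978.5 mg/kg against 5.96 to 6.52 in the vehicle and fell by 0.44 ± 0.11 (limma adjusted p = 0.0163). Cdk4, the kinase of cyclin D, rose there by 0.28 ± 0.09 (limma adjusted p = 0.0498), with replicate 3, at 9.79, inside the vehicle range. This call was lost in 12 of 17 alternatives, with adjusted p up to 0.291 in limma. Its differences at 244.6 and 489.2 mg/kg were 0.28 and 0.31 and did not pass.

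Markers of other cell types were measured beside these results. At 244.6 mg/kg 0 of 9 hepatocyte, 9 macrophage, 11 lymphocyte, 10 stellate, 8 endothelial, 6 bile duct and 7 erythroid markers passed in limma, and of these 60 markers 15 were lower (25% against 5.63% of all genes) and 1 higher (1.67% against 8.32%) at an unadjusted p under 0.05. Macrophage markers had a mean of -0.77 to -0.16 in the 244.6 mg/kg arrays, -1.33 to 0.18 at 489.2 mg/kg and -0.85 to -0.42 at 978.5 mg/kg, against -0.32 to 0.24 in the vehicle. Lymphocyte markers lay at -0.33 to -0.07 at 244.6 mg/kg and -0.11 to 0.12 in the vehicle. At 978.5 mg/kg 1 macrophage, 2 stellate and 3 erythroid markers fell (10% of the 60, against 4.07% of all genes) and 1 bile duct marker rose (1.67% against 6.18%). The endothelial marker mean was lowest in replicate 1 of each of the 6 groups. The part of other cell types in the rise of the replication genes was not tested.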

How the data were processed

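Liver RNA of 21 rats was measured on Affymetrix arrays. The deposited values are log2 expression made by the authors with RMA, per the submitters' processing notes. Its version is not given in the sources used here. RMA averages probes and equalises the distribution of arrays, so a shift shared by all genes cannot be seen. Of 31099 probe sets, 20832 had 1 gene, 436 several and 9831 none in the platform annotation, which left 14218 genes at 1 probe set each. The number of arrays, not a read depth, limits precision.

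The members and lists were chosen with earlier results of these data known. limma 3.58.1 in R 4.3.3 fitted 6 group means (15 residual degrees of freedom), with Benjamini-Hochberg adjustment at 0.05, and the fit was tested on simulated data. Tables and plots used Python 3.11.15, pandas 2.3.3 and matplotlib 3.10.9. Arrays of some or all doses are given for every replication gene called in a comparison and the 2 genes of each role with the highest mean. The genes named from other lists are the 3 called most often against vehicle, some of them given by difference only. Alternatives covered probe set averaging, a level filter, eBayes options, centring, quantile normalization, only the arrays compared, replicate blocks and leaving out arrays.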

Additional observations from a re-analysis of the deposited data

Results flagged for a closer look

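Among the 37 replication genes and the 9 named genes of other lists, the 6 vehicle arrays were checked for a single array far from the others, and 3 of 46 genes had one. Chance alone gives this in about 1 of 20 groups. Prim2, the regulatory subunit of primase, read 7.78 in vehicle replicate 5, with the nearest array at 7.47. Pold1, of polymerase delta, read 6.65 in vehicle replicate 6, with the nearest at 6.87. Rfc5, of the clamp loader, read 8.33 in the same array, with the nearest at 8.72. For Pold1 and Rfc5 the array was the lowest of the vehicle, for Prim2 the highest.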

How the results depend on the processing

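At 244.6 mg/kg the count of replication genes called, 18, was 8 of 13 tested among genes above the median level, 6 with the Gapdh covariate, and 4 to 17 with an array left out. At 978.5 mg/kg the 5 became 9 with arrays centred on their medians, 8 with quantile normalization repeated, 1 with only the arrays compared and 3 with the Gapdh covariate, and 0 to 16 with an array left out. For 489.2 against 244.6 mg/kg the 13 became 6 above the median level, 5 with only the arrays compared and 0 to 18 with an array left out. The 2 trend calls became 1 above the median level, 4 with centring, 0 with dose in mg/kg, and 0 to 4 with an array left out. Counts of 0 stayed at 0 to 1 at 489.2 mg/kg, 0 to 7 for 978.5 against 489.2 mg/kg, 0 to 1 for 978.5 against 244.6 mg/kg, and 0 at the 2 lowest doses with an array left out. The cause of these changes was not tested beyond the fewer genes or arrays that a setting leaves. The share of all genes called under each setting is not given here.

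Replicate numbers are shared by the groups. Over all genes the deviations of same-numbered arrays correlated at -0.23 to 0.369 (45 pairs, median 0.0603). Those of other-numbered arrays correlated at -0.335 to 0.335 (135 pairs, median -0.0232). The median was 0.105 among replicate 1 arrays, and 10 of 18 arrays correlated best with their own number. Same-numbered arrays were thus somewhat more alike, though the ranges overlapped. The numbers were left out of the main fit, and a replicate block was run as an alternative. Endothelial markers, lowest in replicate 1 of all 6 groups, did follow the number. Macrophage, lymphocyte, stellate and erythroid markers were lowest in replicate 1 in 4 of the 6. The replication genes were highest in replicate 1 in 3 groups and lowest in 1. With a replicate block the counts were 12 at 244.6 mg/kg, 5 at 978.5 mg/kg, 12 for 489.2 against 244.6 mg/kg, and 0 for the trend and the other comparisons. Of the 18 and 5 genes called against vehicle, 10 and 3 kept their call.

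Over 37 results for named genes and 635 alternatives of them, 474 kept the call, 161 lost it and 0 reversed. Gins1, Pole and Rfc4 at 244.6 mg/kg kept it in all 16, 16 and 17. It was lost more often than kept for Pola1 (11 of 16), Pole2 (12 of 16) and Rfc3 (9 of 16) at 244.6 mg/kg, Cdk4 at 978.5 mg/kg (12 of 17) and the trend of Rfc2 (16 of 28).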
